A study of Homo sapiens with 6 samples.

Results

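The genes described here are 44 genes of the integrated stress response and the unfolded protein response, taken by name from a table of 60624 genes. All 44 were found in the table, and all 44 had enough reads to be tested. They comprise 5 stress sensors and the transcription factors they act through, 21 genes of the ATF4 amino acid response and 18 genes of protein folding and degradation in the endoplasmic reticulum (ER). PolyA RNA came from A549, a human lung adenocarcinoma cell line, as 3 parental libraries (WT in the labels) and 3 from a RAVER1 deletion line made by CRISPR/Cas9 editing (RAVER1 knockout). RAVER1 is an RNA-binding cofactor of the splicing regulator PTBP1, and the comparison asks how its loss changes gene expression. The knockout titles carry the label KO2 without saying whether it is 1 clone, so the p-values measure the spread between these libraries, not between independently made lines.

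When unfolded proteins gather in the ER, they are sensed by the membrane proteins PERK (gene EIF2AK3), IRE1 (gene ERN1) and ATF6. PERK, like the kinases that sense amino acid shortage, phosphorylates the initiation factor eIF2, which slows general translation and favours translation of the transcription factor ATF4. ATF4 then induces amino acid transporters, enzymes of serine and asparagine synthesis and a group of stress regulators. IRE1 splices XBP1 mRNA, and spliced XBP1 and cleaved ATF6 induce ER chaperones. These steps act largely on translation, splicing and protein cleavage, which counts of reads per gene do not show.

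Total counts ran from 29811747 to 39910127 per library. RAVER1 itself fell from 69.8 ± 3.8 to 2.74 ± 0.17 CPM (counts scaled to a common library size with TMM factors; SD, n = 3 each). The keratins KRT8 and KRT18 and E-cadherin were read in every library, while NKX2-1 and the surfactant genes SFTPA1, SFTPB, SFTPC and SFTPD were below the low-count filter. All 5 endothelial markers and 6 of 7 leukocyte markers were below it as well, with PECAM1, CD3E and MS4A1 at 0 reads. Leukocyte markers summed to 11.05 to 12.6 TPM (counts scaled for gene length to one common total) in parental and 8.27 to 10.7 TPM in knockout libraries, nearly all of it CD14. Of 7 tested epithelial and lung markers 6 were lower in knockout cells, with log2 fold changes from -0.36 (ABCA3) to -2.20 (CDH1). CDH1, the gene of E-cadherin, went from 66.9 to 14.5 CPM. The keratin KRT7 rose from 1762 to 2534 TPM. The summed level of the 12 listed went from between 7167 and 7661 TPM to between 5322 and 5649. All 3 tested fibroblast markers of 7 were higher (COL1A1 0.45, COL3A1 2.4017 and PDGFRA 1.01 on the log2 scale). COL3A1, on chromosome 2, had only 2 to 9 reads in parental and 25 to 31 in knockout libraries. PDGFRA had only 6 to 13 reads in parental and 18 to 24 in knockout libraries. Fibroblast markers were summed at 18.9 to 19.5 TPM in parental and 25.8 to 27.0 TPM in knockout libraries, nearly all of it COL1A1, and DCN was at 0 reads. The part of these markers in the results below was not tested, and in bulk RNA fewer cells of a type and less RNA per cell cannot be told apart.

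Promoters of some members carry the elements through which these factors are known to act. The matches are shown first because the results are later set beside them. Sequences came from RefSeq on GRCh38.p14, as windows of 250 bases before to 50 bases after each transcript start. Of the 44 members 40 were matched, with 60 starts between them. The ER stress element, searched on both strands as CCAAT and CCACG separated by 9 bases of any kind, is bound by ATF6 together with NF-Y. It was found for 7 members (XBP1 and 6 of the 17 ER-folding genes matched), against 25 of 27305 genes in all (0.0916%). Among the 10603 tested genes matched, 16 held it (0.151%). The members were listed as known targets of these factors, so these shares are a description. The sites follow with their fixed letters in capitals, on the strand on which the element reads forward.
XBP1 (chr22:28800598-28800626, minus strand): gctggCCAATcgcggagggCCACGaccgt
HSPA5 (chr9:125241386-125241414, minus strand): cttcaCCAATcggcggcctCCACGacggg
HSP90B1 (chr12:103930211-103930239, plus strand): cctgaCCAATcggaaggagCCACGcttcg
HSP90B1 (chr12:103930316-103930344, minus strand): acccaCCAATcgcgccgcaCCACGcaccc
CALR (chr19:12938379-12938407, minus strand): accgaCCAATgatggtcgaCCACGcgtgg
CANX (chr5:179698773-179698801, plus strand): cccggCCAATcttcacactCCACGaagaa
CRELD2 (chr22:49918549-49918577, minus strand): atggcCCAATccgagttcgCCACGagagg
PDIA6 (chr2:10812848-10812876, minus strand): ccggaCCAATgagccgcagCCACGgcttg

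The C/EBP-ATF response element, through which ATF4 acts, was searched as TGATGNAA on both strands. It was found for 7 of the 18 ATF4-response genes matched (CHAC1, CEBPG, ASNS, SLC3A2, SLC7A1, SLC1A4 and SLC1A5) and for 1 of the 17 ER-folding genes (HERPUD1). The share was 4.46% of all genes and 2.7% of the tested genes matched. The shorter element TGACGTGG, known to be bound by XBP1 and ATF6, was found for HYOU1 alone among the members. Its share was 0.927% of all genes and 1.21% of the tested genes matched. No match says only that these letters are not in the windows searched. The C/EBP-ATF matches in the 3 genes with that element that changed are printed below, with the element in capitals.
CHAC1 (chr15:40953254-40953277, minus strand): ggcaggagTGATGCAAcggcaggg
SLC3A2 (chr11:62881728-62881748, minus strand): ggagcTGATGTAAggagtcct
HERPUD1 (chr16:56931958-56931981, minus strand): gcacgggcTGATGCAAcccgccgc

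Per gene length, the members spanned a wide range. In parental cells CALR, the lectin chaperone calreticulin, stood highest at 1567 ± 19.4 TPM, followed by the leucine transporter SLC7A5 at 1470 ± 52.8 and the chaperone HSPA5 at 864 ± 23.3 TPM (SD, n = 3 each). In knockout cells the order of the leading pair was turned, with SLC7A5 at 2257 ± 13.8 and CALR at 1376 ± 27.9 TPM. ATF4 stood at 327 ± 12.8 TPM in parental cells, far above ATF6 at 22.6 ± 1.84 and ERN1 at 5.46 ± 0.370 TPM. ASNS, which encodes asparagine synthetase, was last at 0.352 ± 0.0362 TPM, with 15 to 19 reads in every library. The next lowest count of any member in a library was 79. On the same strand, 44.6% of the exon bases of ASNS are shared with the annotated gene AC079781.5 (GENCODE release 29), so its level is uncertain.

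**Figure D1:**
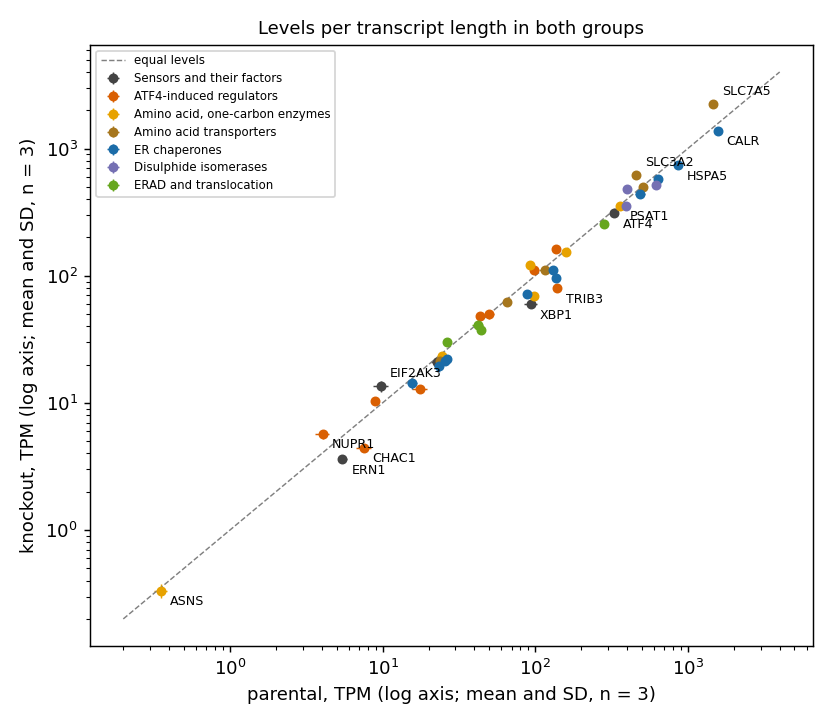
Mean level of each member in parental (x) and knockout (y) libraries in TPM on log axes, with SD over 3 libraries and colours for the role of the gene. SLC7A5 (1470 and 2257 TPM) lies above the line of equal levels, TRIB3 (138 and 79.3 TPM) below it, and ASNS is apart at the bottom.

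Of the 44 members, 19 were lower and 11 higher in knockout cells, and 14 were not past the threshold (edgeR quasi-likelihood test, Benjamini-Hochberg adjusted p under 0.05 over 16652 genes). The called share was thus 30 of 44, beside 41.4% of all genes tested. Over all genes 20.1% were lower and 21.3% higher, so the members lean to the lower side, with a median log2 fold change of -0.085 beside 0.0019 over all genes. The lean sat with the ER-folding genes, of which 13 of 18 were lower and 2 higher (median -0.18). ATF4-response genes were divided, with 8 of 21 higher and 4 lower (median -0.016). Changes were modest. No member reached a 2-fold change, which 6.83% of all genes tested did with a call. Only 4 members changed by at least 1.5-fold, namely TRIB3, CHAC1 and XBP1 downward and SLC7A5 upward. Parental and knockout libraries did not overlap for 30 of 44 members, beside 50.2% of all genes tested.

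**Figure D2:**
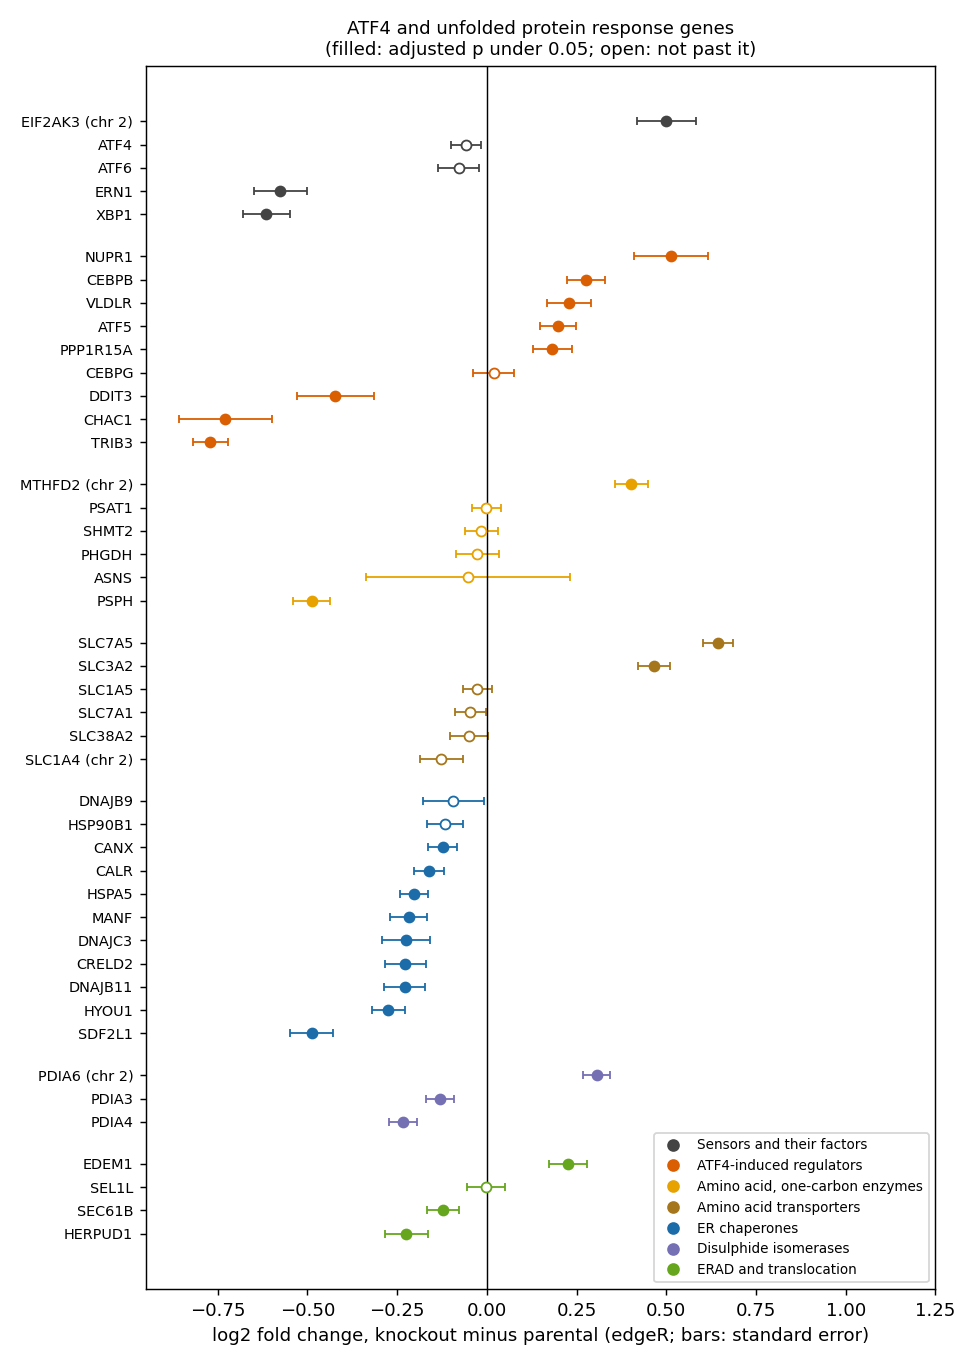
Log2 fold change (x, knockout minus parental) and standard error of all 44 members by role, 3 libraries per group. Filled points are past the adjusted p of 0.05. All 11 ER chaperones lie left of 0, and of the 4 members on chromosome 2 EIF2AK3, MTHFD2 and PDIA6 lie to the right.

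Among the sensors, XBP1 and ERN1 mRNA were lower and EIF2AK3 mRNA was higher in knockout cells, while ATF4 and ATF6 mRNA did not pass. The splicing of XBP1 and the activity of the sensors were not measured. XBP1, the transcription factor whose mRNA IRE1 splices, stood at 73.6, 87.2 and 78.1 CPM in the parental libraries and 56.7, 48.5 and 50.6 CPM in the knockout libraries. Every knockout library lay below every parental one. XBP1 (ENSG00000100219, chromosome 22, 28794555 to 28800597, hg38) fell by 0.61 on the log2 scale (SE 0.066, edgeR adjusted p 3.96e-07), to 0.653 of the parental level. ERN1, the IRE1 kinase and endonuclease on chromosome 17, had 16.1, 17.7 and 16.2 CPM in parental and 10.8, 11.5 and 11.2 CPM in knockout libraries. The groups were again apart, and ERN1 fell by 0.57 (SE 0.074, edgeR adjusted p 4.23e-06).

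EIF2AK3, the PERK kinase, went the other way, from 14.2, 16.6 and 14.1 CPM in parental to 19.2, 21.6 and 22.7 CPM in knockout libraries. It rose by 0.50 (SE 0.081, edgeR adjusted p 5.91e-05), with no overlap of the groups. EIF2AK3 lies on chromosome 2 (88556741 to 88627576), on which 66.8% of 1125 tested genes were higher and the median log2 fold change was 0.42. The 25 tested genes nearest to it had a median of 0.23. ATF4 had 236, 220 and 239 CPM in parental and 226, 224 and 218 CPM in knockout libraries. Those ranges overlapped, and its log2 fold change was -0.058 (SE 0.043, edgeR adjusted p 0.302). ATF6 had 46.5, 53.0 and 50.8 CPM in parental and 46.9, 48.7 and 46.7 CPM in knockout libraries, a log2 fold change of -0.078 (SE 0.057, edgeR adjusted p 0.296). ATF4 and ATF6 remained short of the threshold in each of 14 alternatives that test for any change.

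**Figure D3:**
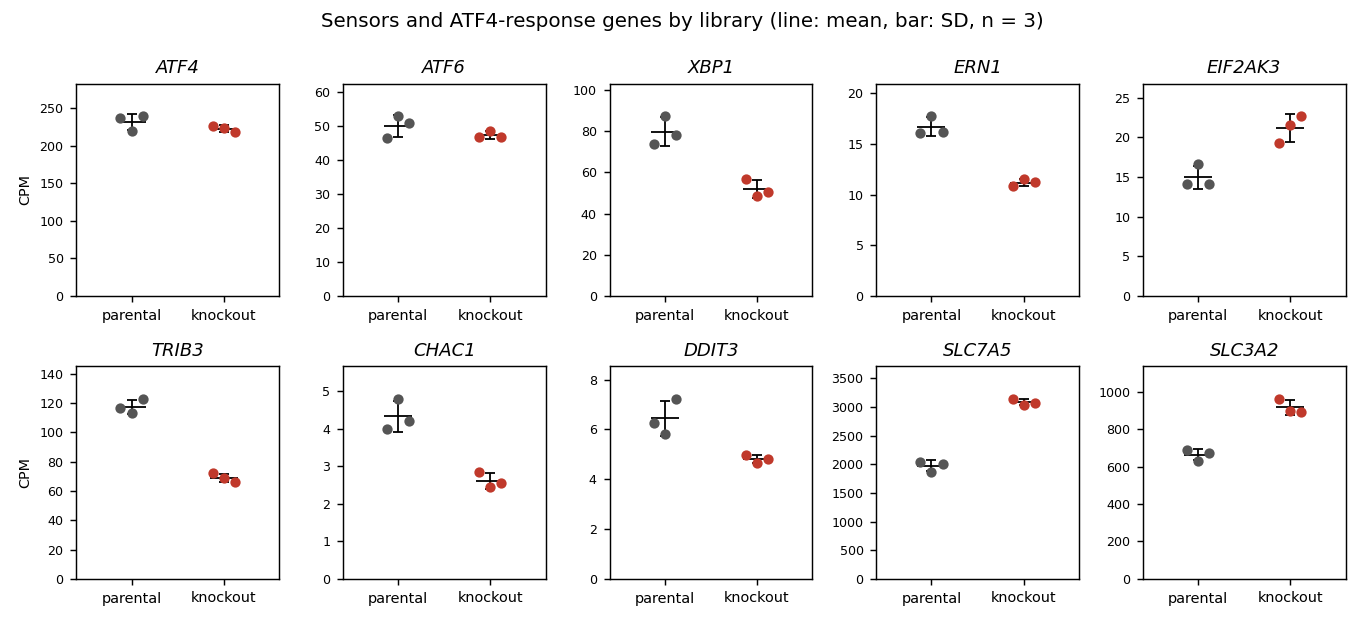
CPM in each of the 3 parental and 3 knockout libraries (points), with mean and SD, for the 5 sensors and 5 ATF4-response genes. The groups overlap for ATF4 and ATF6 and are apart for the other 8 genes, lower in knockout cells for XBP1, ERN1, TRIB3, CHAC1 and DDIT3.

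The regulators that ATF4 induces split by gene, with 3 of 9 lower and 5 higher, beside 20.1% and 21.3% of all genes tested. The 3 that fell were TRIB3, CHAC1 and DDIT3. TRIB3, a pseudokinase that holds back AKT and ATF4 itself, stood at 117, 114 and 123 CPM in parental and 72.1, 68.6 and 66.1 CPM in knockout libraries. The groups were far apart, and TRIB3 (ENSG00000101255, chromosome 20, 362835 to 397559) fell by 0.77 (SE 0.049, edgeR adjusted p 2.87e-10), which was the largest change among the members. CHAC1, which degrades glutathione, had 3.997, 4.81 and 4.22 CPM in parental and 2.85, 2.44 and 2.55 CPM in knockout libraries, and fell by 0.73 (SE 0.13). DDIT3, the pro-apoptotic factor CHOP, had 6.27, 5.83 and 7.23 CPM in parental and 4.99, 4.65 and 4.80 CPM in knockout libraries, and fell by 0.42 (SE 0.11, edgeR adjusted p 0.00398). All knockout libraries were below all parental ones for both genes. Of the exon bases of DDIT3, 27.2% lie opposite exons of the methionyl-tRNA synthetase gene MARS1 (log2 fold change 0.0028). The libraries were stranded, but the strand setting of the counting is not given in the sources used here, so reads of overlapping genes may not be separated.

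Another 5 regulators rose, by 0.18 to 0.51 on the log2 scale. NUPR1, a small stress-induced chromatin protein, went from 6.91, 6.45 and 5.51 CPM to 9.08, 8.27 and 9.70 CPM (log2 fold change 0.51, SE 0.10). CEBPB, a bZIP factor that pairs with ATF4, went from 68.3, 69.3 and 75.5 CPM to 82.9, 83.8 and 91.5 CPM (0.28, SE 0.053). Both had knockout libraries wholly above the parental ones. The lipoprotein receptor VLDLR had 23.5, 22.3 and 24.9 CPM in parental and 27.9, 27.8 and 27.2 CPM in knockout libraries (0.23, SE 0.062). ATF5, a factor closely related to ATF4, had 84.8, 76.0 and 80.0 CPM in parental and 95.2, 90.7 and 90.7 CPM in knockout libraries (0.20, SE 0.050). Exons of NUP62 lie opposite 21.2% of its exon bases. PPP1R15A, the phosphatase subunit GADD34 that reverses eIF2 phosphorylation, rose by 0.18 (SE 0.054). CEBPG, another partner of ATF4, stood at 0.019 (SE 0.057, edgeR adjusted p 0.826), and its groups overlapped.

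Of 6 enzymes of amino acid and one-carbon metabolism, 1 was lower and 1 higher, beside 20.1% and 21.3% of all genes tested. PSPH, which makes serine from phosphoserine, had 77.8, 74.6 and 78.1 CPM in parental and 56.0, 56.8 and 51.4 CPM in knockout libraries. Those groups were well apart, and PSPH fell by 0.49 (SE 0.052, edgeR adjusted p 3.29e-07). PSPH is on chromosome 7, where the median of tested genes was -0.11, and its 25 nearest tested genes had a median of -0.11 too. The enzymes that act before it did not pass, with PHGDH at -0.026 (SE 0.060) and PSAT1 at -0.0012 (SE 0.039, edgeR adjusted p 0.985). PSAT1 had 224, 223 and 227 CPM in parental and 220, 231 and 222 CPM in knockout libraries, and the ranges overlapped. MTHFD2, a mitochondrial folate enzyme, went from 123, 126 and 128 CPM to 160, 177 and 162 CPM and rose by 0.40 (SE 0.046, edgeR adjusted p 9.3e-07). MTHFD2 lies on chromosome 2 (74198562 to 74217565), and its 25 nearest tested genes had a median of 0.31. SHMT2, which feeds the same folate pathway, stood at -0.016 (SE 0.046). ASNS was at -0.053 with an SE of 0.28, so with its few reads a change of the size seen in PSPH was not detectable.

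Among 6 amino acid transporters, the 2 partners of the leucine transporter rose and the rest did not pass. Over all genes tested 21.3% were higher. SLC7A5, the light chain that carries leucine and other large neutral amino acids, stood at 2047, 1866 and 2002 CPM in parental and 3142, 3039 and 3066 CPM in knockout libraries. SLC7A5 (ENSG00000103257, chromosome 16, 87830023 to 87869488) rose 1.56-fold, by 0.64 on the log2 scale (SE 0.043, edgeR adjusted p 5.23e-10). SLC3A2, the heavy chain that brings SLC7A5 to the cell surface, stood at 687, 632 and 673 CPM in parental and 964, 896 and 892 CPM in knockout libraries. It rose 1.38-fold (log2 fold change 0.47, SE 0.044, edgeR adjusted p 7.52e-08). For both partners each knockout library was above each parental one. Their 25 nearest tested genes had medians of -0.033 for SLC7A5 and 0.12 for SLC3A2.

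The other transporters lay close to 0, with the arginine carrier SLC7A1 at -0.046, the glutamine carriers SLC1A5 at -0.026 and SLC38A2 at -0.049, and the neutral amino acid carrier SLC1A4 at -0.13. With all 6 libraries and no block, no transporter was lower in edgeR or limma-voom with TMM scaling, nor in DESeq2 with its own scaling. At an unadjusted p under 0.05, 1 was lower in edgeR and 1 in limma-voom. SLC1A4 is on chromosome 2, where the median was 0.42, and its 25 nearest tested genes stood at 0.22. It had 49.2, 42.8 and 47.9 CPM in parental and 43.7, 41.0 and 43.5 CPM in knockout libraries, with overlapping ranges and an edgeR adjusted p of 0.1. Without parental replicate 2 it passed as lower (-0.19, edgeR adjusted p 0.02305), as it did with upper-quartile scaling (-0.16), and over the 14 alternatives that test for any change the adjusted p ran from 0.0138 to 0.353. Summed over the 6 genes, transporter levels ran from 2566 to 2695 TPM in parental and from 3553 to 3568 TPM in knockout libraries. SLC7A5 held the largest part, with means of 1470 TPM in parental and 2257 TPM in knockout cells. SLC3A2 went from 455.5 to 617.6 TPM. The 4 genes that did not pass each had a slightly lower mean TPM in knockout cells.

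Most ER chaperones were lower in knockout cells. Of 11 chaperones and co-chaperones 9 were lower, beside 20.1% of all genes tested. All 11 had negative values, and the median was -0.22, beside 0.0019 over all genes. None was higher in edgeR, DESeq2 or limma-voom, nor at an unadjusted p under 0.05 in any of the 3. SDF2L1, a small partner of HSPA5, fell most among them, from 41.5, 39.7 and 41.7 CPM to 28.3, 28.1 and 31.4 CPM (log2 fold change -0.49, SE 0.060, edgeR adjusted p 2.17e-06). HYOU1, a nucleotide exchange factor for HSPA5, had 202, 193 and 183 CPM in parental and 167, 157 and 154 CPM in knockout libraries (-0.27, SE 0.047). HSPA5, the central ER chaperone BiP, had 957, 971 and 933 CPM in parental and 842, 827 and 817 CPM in knockout libraries. HSPA5 (ENSG00000044574, chromosome 9, 125234853 to 125241330) fell by 0.20 (SE 0.038, edgeR adjusted p 0.000277), to 0.869 of the parental level, and the parental range was well clear of the knockout range. MANF, a secreted ER stress factor, went from 79.5, 79.7 and 77.3 CPM to 70.9, 69.4 and 62.9 CPM (-0.22, SE 0.052).

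Another 5 chaperones fell, and HSP90B1 and DNAJB9 did not pass. The HSPA5 co-chaperones DNAJB11 (-0.23) and DNAJC3 (-0.22), the ER protein CRELD2 (-0.23), and the lectin chaperones CALR (-0.16) and CANX (-0.12) fell. HSP90B1, the ER form of HSP90, stood at 610, 681 and 641 CPM in parental and 556, 630 and 596 CPM in knockout libraries, with overlap and an edgeR adjusted p of 0.0676 (-0.12, SE 0.049). It passed without parental replicate 1 (-0.15) or knockout replicate 2 (-0.16), with adjusted p from 0.000207 to 0.285 over its alternatives. DNAJB9, another co-chaperone, stood at -0.093 (SE 0.086). Summed over the 11 genes, chaperone levels ran from 3942 to 4103 TPM in parental and from 3424 to 3562 TPM in knockout libraries. The calls of CANX (-0.11, edgeR adjusted p 0.0704) and DNAJC3 (-0.18, 0.0646) were lost without parental replicate 2, and that of CANX also without knockout replicate 3 (-0.12, 0.0735). Over their alternatives the adjusted p of CANX ran from 9.52e-05 to 0.0735 and that of DNAJC3 from 0.000323 to 0.0646.

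**Figure D4:**
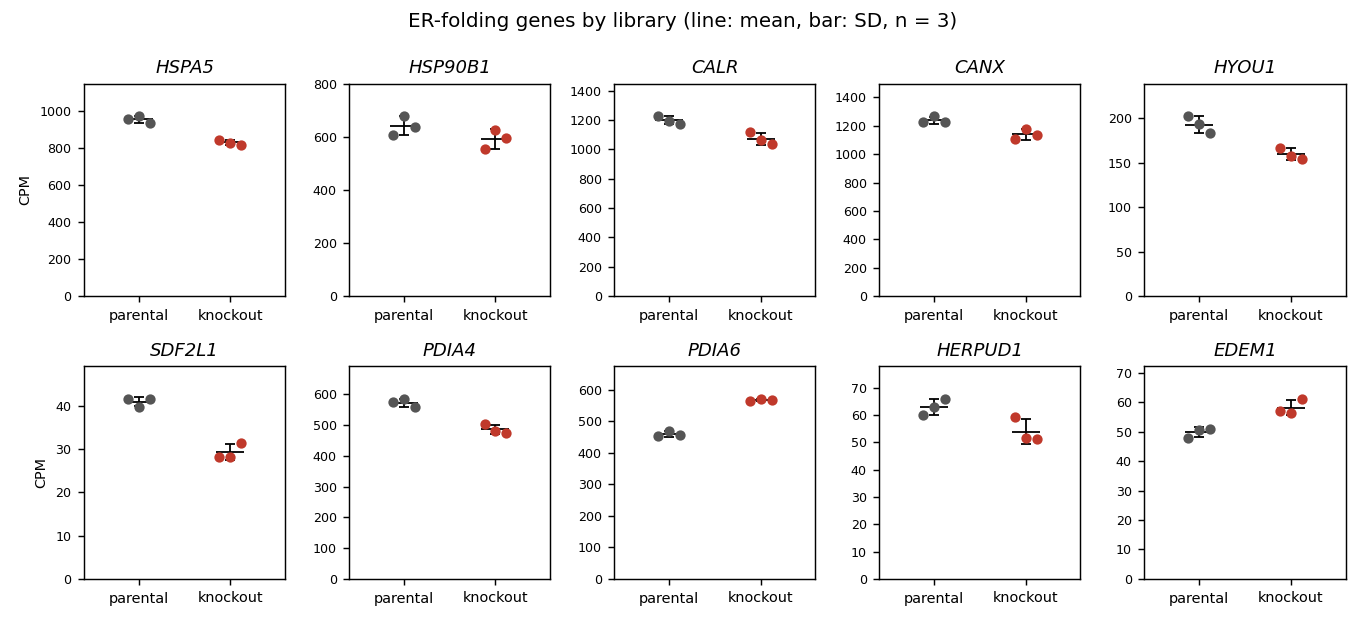
CPM in each of the 3 parental and 3 knockout libraries (points), with mean and SD, for 10 ER-folding genes on axes that start at 0. Knockout libraries lie below parental ones for HSPA5, CALR, CANX, HYOU1, SDF2L1, PDIA4 and HERPUD1, overlap them for HSP90B1 and lie above them for PDIA6 and EDEM1.

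The 3 disulphide isomerases, which form and reshuffle disulphide bonds in the ER, did not move together. PDIA4 had 574, 585 and 558 CPM in parental and 503, 482 and 475 CPM in knockout libraries and fell by 0.23 (SE 0.040, edgeR adjusted p 0.000105). PDIA3, the isomerase that works with calreticulin and calnexin, had 463, 479 and 455 CPM in parental and 425, 431 and 422 CPM in knockout libraries and fell by 0.13 (SE 0.039, edgeR adjusted p 0.0111). The PDIA3 call was lost without parental replicate 2 (-0.11, adjusted p 0.05515) or knockout replicate 3 (-0.12, 0.062), with adjusted p from 0.000103 to 0.062 over its alternatives. Its pseudogene PDIA3P1 held 2948 reads over the parental libraries, against 45207 for PDIA3, so some reads may not be separable. PDIA6 went from 452, 470 and 456 CPM to 565, 572 and 568 CPM and rose by 0.31 (SE 0.038, edgeR adjusted p 2.49e-06). PDIA6 lies on chromosome 2 (10783391 to 10837977), and its 25 nearest tested genes had a median of 0.51, above its own value.

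Of 4 genes of degradation and translocation, 2 were lower and 1 higher, beside 20.1% and 21.3% of all genes tested. HERPUD1, a membrane scaffold of ER-associated degradation (ERAD), had 60.2, 63.0 and 65.95 CPM in parental and 59.1, 51.5 and 51.1 CPM in knockout libraries, and fell by 0.22 (SE 0.060, edgeR adjusted p 0.00575). Knockout replicate 1 lay just under the lowest parental library. EDEM1, which hands misfolded glycoproteins to degradation, went from 47.9, 50.7 and 50.8 CPM to 57.0, 56.5 and 61.2 CPM and rose by 0.23 (SE 0.053, edgeR adjusted p 0.00208), on chromosome 3. SEC61B, a subunit of the translocation channel, had 98.3, 96.7 and 94.6 CPM in parental and 91.2, 88.2 and 86.6 CPM in knockout libraries (-0.12, edgeR adjusted p 0.034). SEC61B lost its call without parental replicate 1 (-0.11), parental replicate 2 (-0.12), parental replicate 3 (-0.15), knockout replicate 2 (-0.12) or knockout replicate 3 (-0.10), with adjusted p from 0.00211 to 0.166 over its alternatives. SEL1L, the partner of the ERAD ubiquitin ligase, stood at -0.0027 (SE 0.054), with overlapping groups.

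Chromosome 2 held 4 members, of which 3 were higher and 0 lower, beside 66.8% higher and 5.6% lower among all its tested genes. Leaving them out, 8 of 40 members were higher and 19 lower, with 1 of 17 ER-folding genes higher and 13 lower, and 7 of 19 ATF4-response genes higher and 4 lower. EIF2AK3 and MTHFD2 stood above the medians of their 25 nearest tested genes, PDIA6 and SLC1A4 below. Chromosome 7 also held 4 members (ASNS, PSPH, DNAJB9 and PDIA4), of which 2 were lower and 0 higher, beside 32.9% lower and 9.41% higher among its 808 tested genes. The 6 members with the largest falls, TRIB3, CHAC1, XBP1, ERN1, PSPH and SDF2L1, had neighbour medians from -0.14 to 0.039, well short of their own values.

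**Figure D5:**
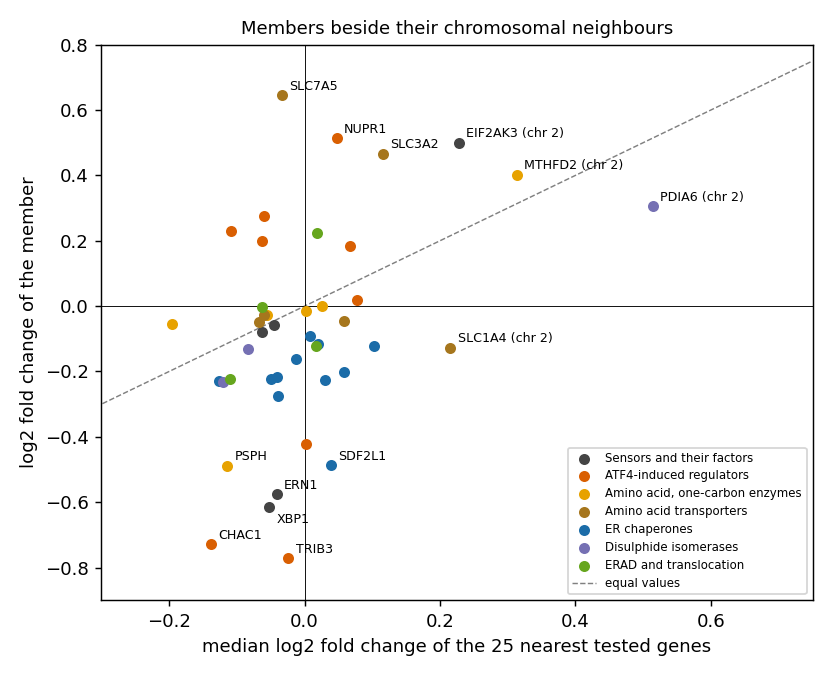
Log2 fold change of each member (y) against the median log2 fold change of the 25 tested genes nearest to it on its chromosome (x), with a dashed line of equal values. The members on chromosome 2 lie to the right with neighbour medians from 0.22 to 0.51, and most other members have neighbours near 0.

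Set beside the promoter matches, the 7 members with an ER stress element comprised 5 that fell (XBP1, HSPA5, CALR, CANX and CRELD2), PDIA6 that rose, and HSP90B1 that did not pass. SDF2L1, HYOU1, MANF, DNAJB11, DNAJC3, PDIA4, HERPUD1 and SEC61B were lower with no match to this element in their windows. Among them HYOU1 held the shorter element TGACGTGG. Of the 8 members with a C/EBP-ATF element, CHAC1 and HERPUD1 fell, SLC3A2 rose and 5 did not pass. TRIB3 and SLC7A5, which changed most in each direction, had no match in theirs.

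Further genes of the same pathways were taken from 7 lists of 115 genes, of which 109 were tested. Of these 26 were higher and 15 lower, beside 21.3% higher and 20.1% lower over all genes tested. The 6 genes of these lists on chromosome 2 were all higher, and without them 20 of 103 were higher and 15 lower. Of 22 further ATF4-response genes 8 were higher and 3 lower. The secreted glycoprotein STC2 rose by 0.83 (SE 0.056) and the bZIP repressor JDP2 by 0.86 (SE 0.067), while the growth factor VEGFA fell by 0.66 and the alanine transaminase GPT2 by 0.56. The number lower was 5 with upper-quartile scaling and 5 when knockout replicate 1 was left out. Of 13 cytosolic aminoacyl-tRNA synthetases, 2 were lower, AARS1 (-0.28) and GARS1 (-0.18). Without a block, none of the 13 was higher in edgeR or limma-voom with TMM scaling from all genes, nor in DESeq2 with its own scaling. In each of the 3, 1 was higher at an unadjusted p under 0.05. CARS1 was called higher with TMM from genes outside chromosome 2 (0.14, edgeR adjusted p 0.035). Upper-quartile scaling called 4 of the 13 lower.

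Of 12 genes of eIF2, its kinases, its phosphatase and its exchange factor, 4 were higher and 2 lower. Over all genes tested 21.3% were higher and 20.1% lower. The exchange factor subunit EIF2B4 (0.63) and the double-stranded RNA kinase EIF2AK2 (0.57) rose, and both lie on chromosome 2. Among the genes off that chromosome, 2 of 10 were higher and 2 lower. Those higher were the eIF2 kinase EIF2AK4 (0.39) and the eIF2 subunit EIF2S1 (0.17). The heme-regulated kinase EIF2AK1 fell by 0.18. EIF2B2 (-0.16) was called lower, but not without parental replicate 1 (-0.13), parental replicate 2 (-0.16), knockout replicate 2 (-0.13) or knockout replicate 3 (-0.14). Of 10 tested genes of ATF6 and XBP1 processing and of the related CREB3 factors 4 were higher. CREB3L1, a membrane-bound factor activated like ATF6, went from 1.501 ± 0.140 to 5.40 ± 0.208 CPM (SD, n = 3 each; log2 fold change 1.84, SE 0.13), and the IRE1 adaptor TRAF2 rose by 0.31. With all 6 libraries and no block, none of the 10 was lower in edgeR, DESeq2 or limma-voom, nor at an unadjusted p under 0.05 in any of the 3. CREB3L4 was called lower without knockout replicate 1 (-0.22, edgeR adjusted p 0.0308). CREB3 (0.16), counted as higher, was not called with upper-quartile scaling (0.13), nor once knockout replicate 1 (0.11) or either of parental replicates 2 (0.16) and 3 (0.12) was left out.

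Further ER-folding enzymes moved both ways, with 6 of 21 higher and 4 lower. The disulphide reductase DNAJC10 (0.78) and the glycoprotein folding sensor UGGT1 (0.40) rose, and both lie on chromosome 2. Off that chromosome 3 of 18 were higher and 4 lower. The prolyl isomerase PPIB fell by 0.19. CRELD1 fell from 1.23 to 0.60 CPM, with only 18 to 45 reads per library. FKBP10 (-0.13) was called lower, but not without parental replicate 1 (-0.11), parental replicate 3 (-0.14), knockout replicate 2 (-0.094) or knockout replicate 3 (-0.12). Its call was also lost with TMM from genes outside chromosome 2 (-0.11). Of 16 further ERAD genes 1 was higher, the lectin ERLEC1 (0.24, on chromosome 2), and 1 lower, DERL2 (-0.23). The ERAD ubiquitin ligase SYVN1 was called higher as well without knockout replicate 2 (0.15, edgeR adjusted p 0.0462). Upper-quartile scaling added DERL1 as lower (-0.13, edgeR adjusted p 0.0353). Of 15 genes of the translocon and signal peptidase 3 were higher and 3 lower. The channel subunit SEC61A2 rose by 0.37, the translocating-chain protein TRAM1 fell by 0.38 and the signal peptidase subunit SPCS1 fell by 0.26. SEC62 (0.22) and the signal peptidase subunit SPCS3 (0.18) were called higher, but neither without parental replicate 1 (0.17 and 0.13) or knockout replicate 2 (0.17 and 0.11), which leaves 1 gene higher. SPCS3 was also lost without parental replicate 3 (0.15) or knockout replicate 3 (0.18). The translocon-associated protein SSR4 (-0.17) was called lower, but not without parental replicate 1 (-0.14) or knockout replicate 2 (-0.13). Among the ER-folding members 13 of 18 were lower. In the wider lists, 4 of 21 folding enzymes, 1 of 16 ERAD genes and 3 of 15 translocon genes were lower. Over all genes tested 20.1% were lower.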

How the data were processed

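PolyA RNA was sequenced from 3 parental and 3 knockout libraries, grouped and numbered by their titles. RNA was extracted with TRIzol and prepared with Illumina's Stranded mRNA kit (protocols given per the labels). The authors used cutadapt 2.8, HISAT2 2.1.0, SAMtools 1.10 and featureCounts 2.0.0 with build hg38, per the submitters' processing notes. Per the file headers, the values are raw counts for each gene, deposited beside a gene length. The sources used here do not name the annotation release, the strand setting or the treatment of shared reads.

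A 2-group model without covariates was fitted to the counts in edgeR 4.0.16 (R 4.3.3), after filterByExpr had left 16652 genes and TMM scaling, and tested by quasi-likelihood. P-values were adjusted over all genes kept (Benjamini-Hochberg, 0.05). The SE is the size of the log2 fold change over the square root of F. TPM were computed from the deposited lengths. Positions and exon overlaps came from GENCODE release 29 on the same build.

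Simulated counts had 16418 genes tested. Of the altered genes, edgeR recovered 21 of 50 at 1.25-fold, 35 of 50 at 1.5-fold and 40 of 50 at 2-fold. It called 8 of 16452 unaltered genes. Altered genes were a far smaller share there than the 41.4% of genes called in the data. The recovery there is thus not that of the main fit. Chi-square per degree of freedom between libraries of a group ran from 2.41 to 8.86, so none was a duplicate.

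Members, lists and tests were chosen with earlier results of these data known, and no list was tested as a set. Values in every library were given for the sensors and, in each other group of members, for up to 4 called genes in each direction with the smallest adjusted p, the rest by fold change. PSAT1, SLC1A4 and HSP90B1 were given in full after their values were seen. In each wider list up to 2 genes in each direction were named, and further ones after their values were seen. Alternatives were RLE and upper-quartile scaling, TMM from genes outside chromosome 2, 2 other filters, the replicate number as a block, DESeq2 1.42.0, limma-voom (limma 3.58.1), a test against a 1.5-fold change, and each library left out in turn. The medians of the 25 nearest genes were added after the data were seen. Protein sequences were not used here.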

Additional observations from a re-analysis of the deposited data

How the results depend on the processing

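Of the 30 members called, 26 kept their direction and call in each of 14 alternatives that test for any change, and 12 of 14 members not called stayed so. The exceptions were CANX, DNAJC3, PDIA3 and SEC61B, and SLC1A4 and HSP90B1. SEC61B was also lost with TMM from genes outside chromosome 2 (adjusted p 0.0667) and without the low-count filter (0.08519). Upper-quartile scaling called SLC1A4 (-0.16) and HSP90B1 (-0.15) lower, and leaving out the low-count filter called HSP90B1 (-0.11). No member changed sign with a call in any alternative. The median of all genes ran from -0.031 (upper quartile) to 0.019 (TMM without chromosome 2). In the test against a 1.5-fold change, edgeR called 1239 genes, 575 higher and 664 lower. Among members it called 1 ATF4-response gene, TRIB3, which was lower, and 0 higher (1 at an unadjusted p under 0.05). It called 0 ER-folding genes and 0 sensors, each with 0 at an unadjusted p under 0.05, higher or lower. With 1 library left out the number of genes called ran from 5827 to 7456. Same-numbered libraries had correlations of their deviations of 0.129, 0.0292 and 0.0142, and not every library correlated best with its own number, so the numbers were not taken as pairs. The replicate block called 8346 genes and added SLC1A4 and HSP90B1 as lower. In the wider lists the block added, among others, CARS1, SYVN1 and VCP as higher and MBTPS1 and DERL1 as lower, and it called 6 further ATF4-response genes and 5 tRNA synthetases lower. ASNS drops out with at least 1 CPM in 3 libraries.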

Other observations

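The ER stress element was also found for 18 genes outside the members, of which 9 were tested. Of those 9, 3 were higher and 2 lower, with a median log2 fold change of 0.047. The C/EBP-ATF element was found for 1209 other genes, of which 278 were tested, 67 higher and 65 lower (median 0.019). Over all genes tested 21.3% were higher and 20.1% lower. The element matches are counts of letters in promoter windows and were not tested.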
